A study of Homo sapiens with 8 samples.

Results

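Expression of 10 genes of the matrix metalloproteinase system was measured in human melanoma cells with and without serum. The genes were 7 matrix metalloproteinases (*MMP1*, *MMP2*, *MMP3*, *MMP9*, *MMP14*, *MMP15* and *MMP17*) and 3 tissue inhibitors of metalloproteinases (*TIMP1*, *TIMP2* and *TIMP3*). They were taken by name from the 58051 genes counted, and all 10 were found. The cells were 4 wild-type lines (WT1 to WT4) obtained by single-cell cloning from A375, a human melanoma cell line, so each line is 1 clone of the same tumor line. Each line was kept for 12 h in DMEM with 10% fetal bovine serum (serum) or in DMEM alone (serum-free), and 1 RNA library was made per line and condition, for 8 libraries in all. The study looked for secreted factors that could act on contacts between melanoma cells once serum is removed.

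Libraries held 29759279 to 67101005 gene counts with serum and 37847737 to 73341551 without. Reads that matched several places made up 22.7% of the WT1 serum library and 16.8% of the WT2 serum library, against 5.73% to 10.1% in the other 6, and these 2 libraries were left out in turn below. The deposited counts of the WT4 libraries carry another name, so the identity of that line rests on the labels. Of 8 melanocyte and melanoma markers, *MITF* had 1106 to 2319 counts and *S100B* 512 to 1413 counts per library, *TYR* had 0 to 4 and *SOX10* was listed at 0 in every library. Of 4 markers of undifferentiated melanoma, *AXL* had 13669 to 44307 counts, *NGFR* 934 to 15199, *EGFR* 255 to 2706 and *SOX9* 0 to 41. Markers of other cell types were mixed. Among fibroblast markers, *COL1A2* had 0 to 7 and *COL3A1* 0 to 6 counts, while *COL1A1* had 18 to 157, *LUM* 128 to 268, *DCN* 8 to 302 and *PDGFRA* 21 to 227. Among immune markers, *PTPRC* had 0 to 2, *CD3E* 0 to 1 and *CD68* 1 to 5 counts, while *LYZ* had 107 to 425. *KRT1* of keratinocytes was at 0 in every library, while *KRT10* (1074 to 2779 counts) and *KRT14* (475 to 1494) were as high as *MITF* and *S100B*. Of the endothelial markers, *VWF* had 9 to 58 counts and *CDH5* 4 to 85, while *KDR* had 396 to 3475. In summed CPM (counts scaled to library size), the 6 fibroblast markers were at 6.41 to 10.3 with serum and 7.96 to 10.4 without, the 5 immune markers at 3.01 to 6.90 and 3.93 to 8.44, the 4 keratinocyte markers at 54.6 to 64.5 and 43.5 to 56.2, and the 3 endothelial markers found at 12.9 to 41.8 and 18.5 to 47.4. In the serum test below, *PDGFRA* and *S100A1* passed as higher without serum and *MITF* and *KRT10* as lower. The median log2 difference of the tested markers was 0.51 for fibroblasts, 0.26 for immune cells, 0.30 for endothelium and -0.16 for keratinocytes. That of all tested genes was 0.03. The part of these markers in the results was not tested.

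Matrix metalloproteinases are zinc-dependent enzymes that cut collagens, other matrix proteins and proteins at the cell surface. Most are secreted as inactive proenzymes, and the membrane-type enzymes are held at the cell surface by a transmembrane segment or a lipid anchor. TIMPs bind the active site of these enzymes and block it. TIMP2 has a further role, since it joins the proenzyme of MMP2 to MMP14 at the cell surface, where MMP2 is then activated. In melanoma, these enzymes are known for their part in the passage of tumor cells through collagen and basement membrane.

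Levels were first compared per length, as RPKM (reads scaled to exon length and library size), so that genes could be set against each other. *TIMP3*, an inhibitor that stays bound to the matrix, had the highest mean of the 10 genes, at 293 ± 67.0 RPKM with serum and 456 ± 74.6 without (SD, n = 4). It ranked 106 with serum and 45 without among 17425 tested genes with a known length. *TIMP1*, a secreted inhibitor, followed at 164 ± 123 and 157 ± 92.3 RPKM, with ranges that overlapped those of *TIMP3* with serum and not without. The order of both genes was turned in WT4 with serum, where *TIMP1* stood at 349 and *TIMP3* at 302 RPKM, and without WT4 the mean of *TIMP1* was 103 RPKM with serum and 111 without. *TIMP2* was much lower, at 12.1 ± 1.31 and 12.2 ± 2.00 RPKM.

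Among the enzymes, *MMP2*, the gelatinase that cuts denatured collagen and type IV collagen, was highest at 28.4 ± 8.37 RPKM with serum and 41.6 ± 15.9 without. *MMP14*, the membrane-type collagenase also called MT1-MMP, was at 15.7 ± 2.03 and 23.4 ± 2.32 RPKM, and its range overlapped that of *MMP2* only without serum. *MMP17*, a membrane-type enzyme with a lipid anchor, was at 6.53 ± 2.22 and 8.59 ± 2.06 RPKM. *MMP15*, a membrane-type enzyme close to MMP14 in structure, was at 4.02 ± 1.14 and 4.17 ± 0.783 RPKM. These 7 genes lay above the median of tested genes, which was 2.75 RPKM with serum and 2.93 without.

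The other 3 members lay below that median. *MMP1*, the interstitial collagenase, was at 0.275 ± 0.0723 RPKM with serum and 0.632 ± 0.175 without, and its ranges overlapped those of neither neighbor in the order. *MMP3* (stromelysin) and *MMP9* (the other gelatinase) stood under 0.1 RPKM on average in both conditions, and their ranges overlapped. *MMP17* stood above *MMP15* in all 4 lines in both conditions, although their ranges overlapped with serum, and *TIMP2* and *MMP17* had ranges that overlapped without serum. One place in the order depends on the length used: with the longest transcript in place of all exons, *TIMP2* (20.5 RPKM) stood above *MMP14* (18.9 RPKM) with serum.

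**Figure D1:**
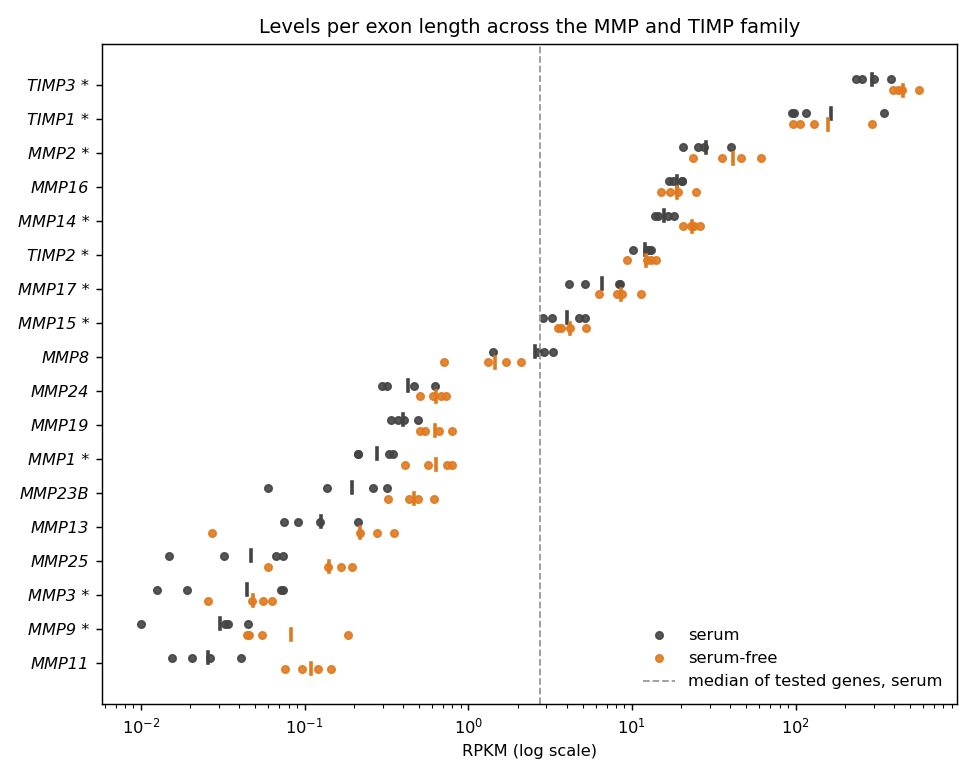
RPKM (log scale) of the 10 member genes, marked with an asterisk, and of other MMP genes averaging 10 counts or more, in serum (gray) and serum-free (orange) culture. Points are the 4 lines, short bars their mean, and the dashed line the median of tested genes with serum (2.75 RPKM); *TIMP3* and *TIMP1* lie furthest to the right, and *MMP1*, *MMP3* and *MMP9* lie left of the dashed line.

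The members are spread over 8 chromosomes (RefSeq positions on GRCh38). *MMP1* (ENSG00000196611, chromosome 11, 102789919 to 102798160) and *MMP3* (ENSG00000149968, chromosome 11, 102835801 to 102843609) lie in a cluster of MMP genes, and *MMP2* (ENSG00000087245, 55478830 to 55506691) and *MMP15* (ENSG00000102996, 58025754 to 58046901) lie on chromosome 16. *MMP9* (ENSG00000100985) is on chromosome 20 at 46008908 to 46016561, *MMP14* (ENSG00000157227) on chromosome 14 at 22836585 to 22847758, and *MMP17* (ENSG00000198598) on chromosome 12 at 131828393 to 131851771. *TIMP1* (ENSG00000102265) is on chromosome X at 47582436 to 47586789, within *SYN1*, *TIMP2* (ENSG00000035862) on chromosome 17 at 78852977 to 78925387, and *TIMP3* (ENSG00000100234) on chromosome 22 at 32801705 to 32863041, within *SYN3*. Neither *TIMP1* nor *TIMP3* shares exon sequence with its host. Exons of *MMP9* share 18.4% of their length with *SLC12A5-AS1*, those of *TIMP2* 9.5% with *CEP295NL* and another gene, and those of *MMP1* 8.1% with *WTAPP1* on the opposite strand, and the strand setting of the counting is not given in the sources used here. *SLC12A5-AS1* was listed at 0 in every library and *WTAPP1* was at no more than 0.247 CPM.

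RefSeq promoter sequences (GRCh38.p14, 250 bases before to 50 after the gene start) were at hand for 4 members, and they are shown because 2 of these genes passed the serum test below and 2 did not. All 4 lie on the plus strand, at chr14:22836335-22836634 (*MMP14*), chr22:32801455-32801754 (*TIMP3*), chr16:58025504-58025803 (*MMP15*) and chrX:47582186-47582485 (*TIMP1*). Capitals mark every match, on either strand, to 6 motifs: the GC box GGGCGG, the CCAAT box CCAAT, the AP-1 site TGANTCA, the TATA box TATAAA, the forkhead site GTAAACA and the E-box CACGTG.
MMP14: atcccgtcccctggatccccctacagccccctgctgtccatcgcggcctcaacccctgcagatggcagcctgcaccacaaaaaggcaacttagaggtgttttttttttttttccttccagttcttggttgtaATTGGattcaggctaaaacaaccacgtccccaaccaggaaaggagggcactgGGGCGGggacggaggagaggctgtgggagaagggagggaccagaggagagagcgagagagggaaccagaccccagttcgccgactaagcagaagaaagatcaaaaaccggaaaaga
TIMP3: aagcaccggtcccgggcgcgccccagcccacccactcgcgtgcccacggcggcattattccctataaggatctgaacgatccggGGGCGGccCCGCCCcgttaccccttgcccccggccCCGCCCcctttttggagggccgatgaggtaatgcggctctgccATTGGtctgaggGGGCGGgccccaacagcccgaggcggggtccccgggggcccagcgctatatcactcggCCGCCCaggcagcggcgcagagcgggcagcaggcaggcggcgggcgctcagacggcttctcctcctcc
MMP15: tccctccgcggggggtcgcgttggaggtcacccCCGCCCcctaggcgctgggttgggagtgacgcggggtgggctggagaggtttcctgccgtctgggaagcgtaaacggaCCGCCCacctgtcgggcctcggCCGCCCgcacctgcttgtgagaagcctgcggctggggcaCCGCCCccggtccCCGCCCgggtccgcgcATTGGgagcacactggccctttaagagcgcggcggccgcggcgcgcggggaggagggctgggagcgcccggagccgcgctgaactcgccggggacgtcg
TIMP1: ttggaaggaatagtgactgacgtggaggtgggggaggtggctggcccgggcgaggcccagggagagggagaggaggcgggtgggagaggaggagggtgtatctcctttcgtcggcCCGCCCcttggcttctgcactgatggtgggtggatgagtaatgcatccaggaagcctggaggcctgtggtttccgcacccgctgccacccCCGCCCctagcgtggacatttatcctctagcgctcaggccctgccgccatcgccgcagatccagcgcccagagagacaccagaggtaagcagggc

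The capitals in these windows are GC boxes and CCAAT boxes only. *TIMP3* and *MMP15* each held 5 GC boxes and 1 CCAAT box, *MMP14* held 1 of each, and *TIMP1* held 2 GC boxes. Across 35116 promoters of the same length, 45% held the GC box and 34.6% the CCAAT box. None of the 4 windows held an exact match to the AP-1 site, the TATA box, the forkhead site or the E-box. Such matches occur in 7.71%, 11.5%, 3.42% and 7.26% of all promoters. Sites that differ from these sequences were not searched for, so the windows may hold variant sites. *TIMP3*, which rose, and *MMP15*, which did not pass the test, had equal numbers of matches. Whether these motifs bear on the serum response was not tested. GC content of the windows was 55.0% for *MMP14*, 65.0% for *TIMP1*, 72.7% for *TIMP3* and 75.3% for *MMP15*.

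The comparison made by these 8 libraries was serum-free against serum culture. Without serum, the collagenase *MMP1* rose 2.30-fold, the membrane-type enzyme *MMP14* 1.49-fold and the inhibitor *TIMP3* 1.56-fold, and no member fell. Of the 10 members, 8 had enough counts to be tested, and 3 of these 8 rose at an adjusted p under 0.05 (quasi-likelihood test of edgeR, Benjamini-Hochberg adjustment over 17671 genes), against 11.1% of all tested genes. Falls made up 14.0% of all tested genes and 0 of the 8 members, where an unadjusted p under 0.05, DESeq2 and limma's voom also gave 0. Of all calls, 44.1% were rises, which became 57.6% with upper-quartile scaling, while the members called were 3 under both. When the line was added as a replicate block, so that each serum-free library was set against the serum library of its own line, 5 of the 8 members were higher without serum, adding *MMP2* and *MMP17*, against 23.2% of all tested genes. With the block and a correction for GC content, 2 members passed as lower (*MMP15* and *TIMP1*), where 4301 of all tested genes were lower. The median log2 difference of the 8 members was 0.47, and that of all tested genes 0.03. RNA was measured in bulk, so a change in the number of cells making a transcript and a change in RNA per cell cannot be told apart.

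**Figure D2:**
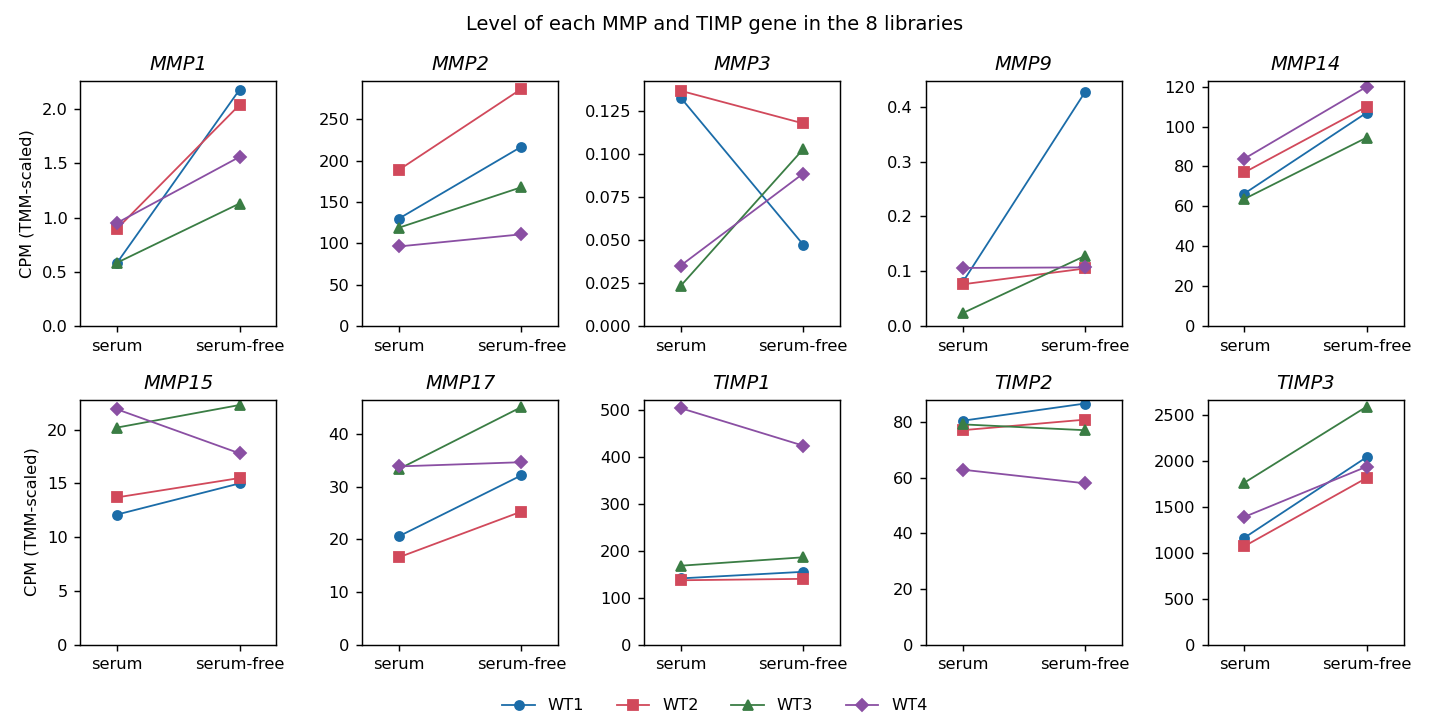
CPM of each member with and without serum, on a separate linear axis from 0 for each gene, with 1 colored line per cell line. The serum-free values of *MMP1*, *MMP14* and *TIMP3* all lie above the serum values, *TIMP1* stands apart in WT4, and *MMP3* and *MMP9* stay under 0.5 CPM.

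*MMP1* stood at 0.583, 0.898, 0.584 and 0.951 CPM with serum and at 2.18, 2.04, 1.13 and 1.56 CPM without (WT1 to WT4). All serum-free values lay above all serum values. The log2 difference was 1.20 ± 0.29 (SE; edgeR's adjusted p = 0.0142), and 1.19 ± 0.25 with the replicate block. These levels rest on 22 to 59 counts per library with serum and 44 to 156 without. The call was lost without WT1 (edgeR's adjusted p = 0.106) and without WT2 (0.0646), while the log2 difference stayed at 0.97 and 1.21.

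*MMP14* stood at 66.4, 77.0, 63.7 and 83.9 CPM with serum and at 107, 110, 94.5 and 120 CPM without. Here too the groups did not overlap, and the 4 lines were close to one another, with log2 ratios of 0.68, 0.52, 0.57 and 0.52. The difference was 0.57 ± 0.11 (edgeR's adjusted p = 0.00498). Of the members, *MMP14* alone kept its serum call in all 25 alternatives, with edgeR's adjusted p up to 0.0467 when 1 library or line was left out. Its value was lowest, at 0.38, with the replicate block and a correction for GC content.

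*TIMP3* stood at 1163, 1071, 1763 and 1390 CPM with serum and at 2043, 1816, 2593 and 1939 CPM without. The lowest serum-free value lay above the highest serum value, and each line rose, by 0.81, 0.76, 0.56 and 0.48 on the log2 scale. The fitted difference was 0.64 ± 0.17 (edgeR's adjusted p = 0.0242), and 0.65 ± 0.06 with the replicate block (9.75e-07). Without the block the call was lost in 7 of 12 fits that left out a library or line: the serum libraries of WT1 (adjusted p = 0.0741) and WT2 (0.0551), the serum-free libraries of WT1 (0.0511) and WT3 (0.0527), and the lines WT1 (0.131), WT2 (0.0568) and WT4 (0.0859). The log2 difference stayed between 0.52 and 0.69 in these 7 fits, and with the block it passed without each line in turn (adjusted p from 2.89e-11 to 2.50e-04 by edgeR). The 3 genes called were also the members whose groups did not overlap, 3 of 8 against 12.6% of all tested genes in that direction, and 5 of 8 were higher without serum in every line, against 28.8% of all tested genes.

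*MMP2* stood at 130, 189, 119 and 96.3 CPM with serum and at 217, 287, 168 and 111 CPM without. Each line was higher without serum, yet the groups overlapped because the lines differed more from one another than the conditions did. The difference was 0.55 with a 95% interval of -0.17 to 1.27 (edgeR's adjusted p = 0.238), and 0.51 with an interval of 0.36 to 0.67 when lines were paired as a replicate block (adjusted p = 5.12e-05 by edgeR). Without the block, the value moved to 0.31 without the WT2 serum-free library and to 0.76 without the WT2 serum library, and passed in neither fit. The blocked value passed without each line in turn, with adjusted p-values from 1.44e-10 (without WT4) to 0.0031 (without WT3). With a correction for GC content it was 0.37 (edgeR's adjusted p = 1.10e-04).

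*MMP17* followed the same pattern at a lower level, with 20.6, 16.6, 33.4 and 33.9 CPM with serum and 32.2, 25.3, 45.2 and 34.7 CPM without. The log2 ratio was 0.65, 0.61 and 0.44 in WT1 to WT3 and 0.03 in WT4. The difference was 0.40 (95% interval -0.21 to 1.01, edgeR's adjusted p = 0.311), and 0.43 (0.24 to 0.63) with the replicate block (0.0013). Without the block, the value fell to 0.23 without the WT2 serum library or the WT3 serum-free library. This is the member with the highest transcript GC content, 68.7%, and the blocked difference became 0.08 and lost its call when a per-library trend on GC content was removed (adjusted p = 0.304). Whether GC content contributes was not tested further.

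The remaining membrane-type enzyme, *MMP15*, stood at 12.1, 13.7, 20.2 and 21.9 CPM with serum and at 15.0, 15.5, 22.3 and 17.8 CPM without. It was higher without serum in WT1 to WT3 and lower in WT4, and the groups overlapped widely, also over WT1 to WT3 alone. The difference was 0.06 (95% interval -0.41 to 0.52, edgeR's adjusted p = 0.876), and 0.08 (-0.13 to 0.29) with the replicate block. With the block, it passed as a rise of 0.21 without WT4 (adjusted p = 0.0376), and as a fall of 0.22 on the log2 scale with the GC correction (0.0214), so its direction depends on both choices.

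*TIMP1* stood at 141, 137, 168 and 504 CPM with serum and at 155, 140, 186 and 424 CPM without. The WT4 libraries stood far above the others in both conditions, and only in WT4 was the serum-free value the lower. The difference was -0.07 (95% interval -1.35 to 1.22, edgeR's adjusted p = 0.946), and 0.02 (-0.12 to 0.16) with the replicate block (0.866). With the block, *TIMP1* passed as a rise of 0.11 without WT4 (adjusted p = 0.0454) and, with the GC correction, as lower at -0.16 (0.0115). Without the block, leaving out 1 WT4 library moved it to 0.61 (serum) or -0.57 (serum-free), and neither passed (0.309 and 0.504).

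*TIMP2* stood at 80.5, 77.1, 79.2 and 62.9 CPM with serum and at 86.7, 80.9, 77.1 and 58.0 CPM without. It was higher in WT1 and WT2 and lower in WT3 and WT4, by 0.12 or less on the log2 scale in each. The fitted difference was 0.01, with an interval of -0.27 to 0.30, or of -0.12 to 0.13 with the replicate block. A change in *TIMP2* larger than 0.13 in either direction lies outside the blocked interval.

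*MMP3* and *MMP9* were too low to be tested. *MMP3* had 5, 9, 1 and 1 counts with serum and 2, 9, 4 and 5 without. *MMP9* had 3, 5, 1 and 3 counts with serum and 18, 8, 5 and 6 without, the highest being WT1. Fitted without a filter on low counts, *MMP3* differed by 0.07 (edgeR's adjusted p = 0.967) and *MMP9* by 1.39 (0.284) on the log2 scale. No difference was detected for either gene, and how large a difference these counts could show was not tested.

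**Figure D3:**
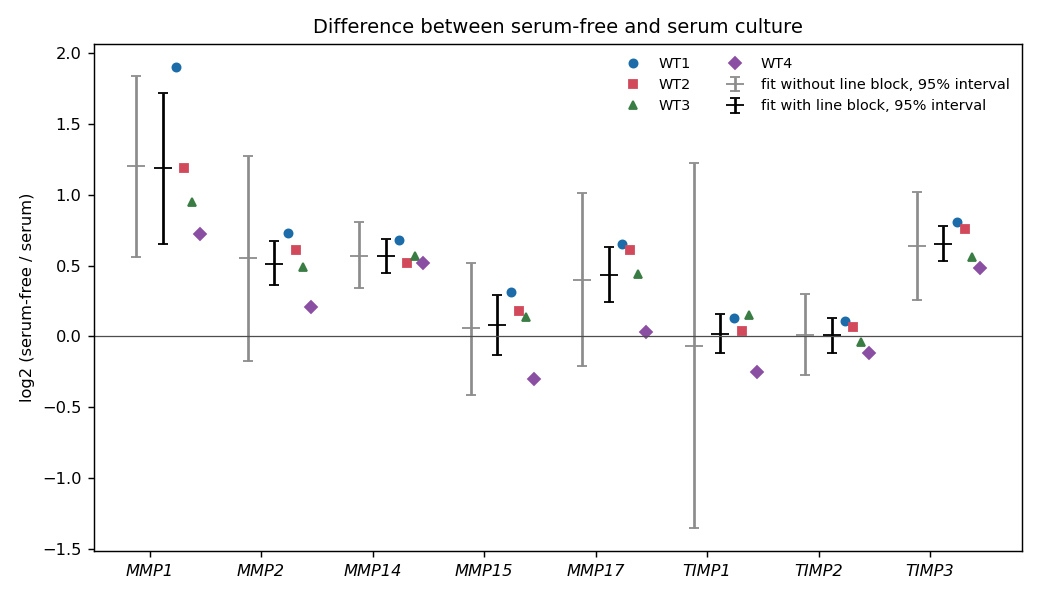
Log2 difference between serum-free and serum culture for the 8 members tested. Gray and black bars are the fitted value with its 95% interval without and with the line as a block, and colored points are the ratio within each line; the black intervals of *MMP1*, *MMP2*, *MMP14*, *MMP17* and *TIMP3* lie above 0.

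Ratios between members were also compared within each line. Per length, *MMP14* stood at 1.11, 1.34, 1.08 and 1.79 times *TIMP2* with serum (WT1 to WT4) and at 1.65, 1.83, 1.65 and 2.79 times without. The ratio of *MMP2* to *TIMP2* was 2.14, 3.23, 1.99 and 2.02 with serum and 3.30, 4.69, 2.87 and 2.53 without. Both ratios were higher without serum in 4 of 4 lines, and no test was run on them. Their size depends on the exon length used, and with the longest transcript the mean of *MMP14* with serum (18.9 RPKM) lay below that of *TIMP2* (20.5 RPKM), while the shift between conditions does not depend on length. *TIMP3* made up 69.5%, 68.6%, 74.9% and 45.7% of the summed RPKM of the 3 TIMPs with serum, and 78.6%, 78.2%, 80% and 58.2% without. The lower shares are those of WT4, where *TIMP1* was high. The summed TIMP level over the summed level of the 7 enzymes was 7.22, 5.26, 9.75 and 12.5 with serum and 6.92, 5.27, 9.65 and 11.5 without.

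A further comparison asked whether the 4 lines differed from one another within a condition. *TIMP1*, *MMP2* and *MMP17* showed the widest differences, and 7 of the 8 members tested differed between lines (edgeR's quasi-likelihood test of the 3 line terms, condition in the model, Benjamini-Hochberg adjusted p under 0.05), against 22.9% of all tested genes. *MMP1* was the exception, with a fitted range of 0.75 on the log2 scale (edgeR's adjusted p = 0.397). *TIMP1* spanned 1.75 on the log2 scale, or 3.36-fold (edgeR's adjusted p = 9.69e-09), with WT4 highest and WT2 lowest in both conditions. *MMP2* spanned 1.17, or 2.24-fold (edgeR's adjusted p = 8.06e-06), with the order turned, WT2 highest and WT4 lowest in both conditions.

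*MMP17* spanned 0.92 (edgeR's adjusted p = 3.41e-04) with WT2 lowest in both conditions, and *TIMP3* spanned 0.62 (2.87e-04) with WT3 highest and WT2 lowest. *MMP15* spanned 0.65 (adjusted p = 0.00544), lowest in WT1 in both conditions. *TIMP2* spanned 0.47 (0.00368), with WT1 highest and WT4 lowest, and *MMP14* spanned 0.37 (0.0131), with WT4 highest and WT3 lowest. *TIMP1*, *MMP2* and *MMP17* kept their calls in all 18 alternatives, but their ranges rested in part on single lines. That of *TIMP1* shrank from 1.75 to 0.35 without WT4, that of *MMP2* from 1.17 to 0.70 without WT2 and 0.72 without WT4, and that of *MMP17* from 0.92 to 0.58 without WT2. Without WT3, the number of members called fell from 7 to 4, since *MMP14* (0.150), *MMP15* (0.0648) and *TIMP3* (0.223) were lost, and *TIMP2* was lost without WT4 (0.457). The ranges were then 0.26 for *MMP14*, 0.55 for *MMP15* and 0.25 for *TIMP3* without WT3, and 0.10 for *TIMP2* without WT4. *MMP14* was also lost without the WT3 serum library (0.0947), the WT3 serum-free library (0.0973) or the WT2 serum-free library (0.0515), and *MMP15* without the WT3 serum-free library (0.0758). In these single-library fits the ranges stayed close to the full ones, at 0.38, 0.40 and 0.38 for *MMP14* and 0.58 for *MMP15*.

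**Figure D4:**
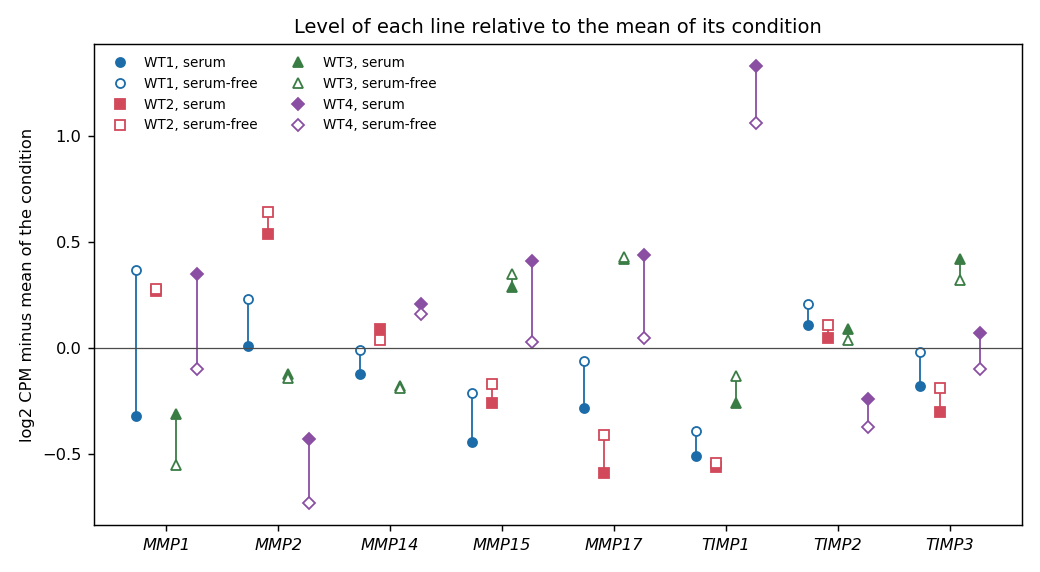
Log2 CPM of each line minus the mean of its condition, for the 8 members tested, with serum (filled) and without (open). *TIMP1* in WT4 lies more than 1 above the mean in both conditions, and *MMP2* is highest in WT2 and lowest in WT4.

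The size of the serum response was also compared by line. In 7 of the 8 members tested, WT4 had the smallest log2 ratio of the 4 lines, against 32.1% of all tested genes, and *MMP14* was the exception, smallest in WT2. The median log2 ratio over all tested genes was 0.044 in WT4 and 0.016 to 0.029 in the other lines. The response of WT4 was then set against that of the other 3 lines. This test was chosen after the ratios were seen and is no independent support for them, and since WT4 gives 1 pair of libraries, all of its spread comes from the other 3 lines. Under the assumption that WT4 varies like them, the response was lower in WT4 for *MMP2* (by -0.40 on the log2 scale, edgeR's adjusted p = 0.0133), *TIMP1* (-0.35, 0.0141) and *MMP17* (-0.53, 0.0169), 3 of 8 members against 6.33% of all tested genes. *MMP15* (-0.51, adjusted p = 0.060) and *TIMP3* (-0.23, 0.104) did not pass. The same test for WT1, WT2 or WT3 called 0 members, also at an unadjusted p under 0.05, and 0.0%, 0.0% and 0.00566% of all tested genes. In the tests of WT1, WT2 and WT3, the WT4 pair was among the other 3 lines, which give all of the spread. A difference of WT4 from the rest thus adds to the spread there and not in the WT4 test. The low counts for WT1, WT2 and WT3 therefore cannot serve as a contrast to those for WT4. WT4 has 1 library per condition, so a property of these libraries and one of the line cannot be told apart.

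Other enzymes of the family were mostly low. Of 17 further genes (16 MMP genes and *TIMP4*), 8 were tested, 3 rose and 0 fell, and with the replicate block 5 rose and 1 fell. These counts are not set against the shares of all tested genes, since 2 of the 3 that rose, *MMP11* and *MMP25*, reached the 4 libraries that the filter on low counts asks for only through their serum-free values. *MMP16*, a membrane-type enzyme, was the only one near the abundant members, at 18.8 ± 1.63 RPKM with serum and 19.0 ± 4.12 without, and its log2 difference was 0.02 (95% interval -0.30 to 0.33). *MMP11* (stromelysin-3) had 3, 9, 9 and 3 counts with serum and 26, 30, 29 and 28 without, and was over the filter in 0 serum and 4 serum-free libraries, so its log2 difference of 2.02 (edgeR's adjusted p = 0.00648) is no independent result. *MMP19* rose by 0.65 (0.0436), from 1.56 to 2.29 CPM to 2.36 to 3.70, and was over the filter in all 8 libraries. *MMP25*, a lipid-anchored enzyme over the filter in 2 serum and 4 serum-free libraries, had 12, 10, 15 and 2 counts with serum and 12, 71, 31 and 37 without (1.57, 0.0462), and its groups overlapped.

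*MMP8*, the collagenase of neutrophils, stood at 9.14, 10.0, 11.3 and 4.86 CPM with serum and at 4.53, 5.84, 7.22 and 2.43 CPM without. It was lower without serum in 4 of 4 lines, by 0.83 on the log2 scale without the block (edgeR's adjusted p = 0.116), and passed with the replicate block (-0.85, 3.35e-05). *MMP23B*, which has a near-identical copy (*MMP23A*) and is uncertain for that reason, differed by 1.26 (adjusted p = 0.064; 0.0075 with the block). It was over the filter in 7 libraries, 3 of them with serum. It thus reached the 4 libraries that the filter asks for only through its serum-free values, and its difference is no independent result. *MMP24* differed by 0.57 (0.133; 0.0222 with the block), and *MMP13* by 0.83 (0.343; 0.261 with the block). *MMP26* and *MMP27* had 0 counts in every library. In the MMP gene cluster on chromosome 11 that holds *MMP1*, 3 of 9 genes were tested (*MMP1*, *MMP8* and *MMP13*), and *MMP1* was the only one that rose.

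Genes that act on or with these enzymes were mixed, and each count below stands against the same shares of all tested genes, 11.1% up and 14.0% down without the block and 23.2% up and 22.4% down with it. Of 17 tested activators, inhibitors and receptors of MMPs, 4 rose and 0 fell, with a median of 0.13. *DDR1*, a collagen receptor, rose from 74.4 to 94.0 CPM to 137 to 166 (0.79 on the log2 scale, edgeR's adjusted p = 0.00112), and *LRP1*, a receptor that takes up MMPs and TIMPs from outside the cell, rose from 56.3 to 81.8 CPM to 99.3 to 122 (0.62, 0.00629). Of 10 tested genes of plasminogen activation, 2 rose and 2 fell. *SERPINF2*, which encodes the inhibitor of plasmin, rose by 1.37 (0.00764), and *PLAUR*, the urokinase receptor, fell by 0.41 (0.0184). With the replicate block, 7 rose and 2 fell among the activators, inhibitors and receptors, and 4 rose and 4 fell among the plasminogen genes.

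Among related proteases, 2 of 14 tested ADAMTS genes rose, a share near the 11.1% of all tested genes, and 0 fell (4 and 2 with the replicate block). The genes that rose without the block were *ADAMTS7* (1.07, edgeR's adjusted p = 0.00188) and *ADAMTS13*, which cuts von Willebrand factor (1.49, 0.00536). Of 7 tested ADAM sheddases, *ADAM10* fell by 0.24 (0.0302) and 0 rose, while 2 rose and 2 fell with the replicate block. Of 9 tested other matrix enzymes, the lysosomal protease *CTSB* rose by 0.51 (0.0265), and 2 rose and 1 fell with the replicate block. Of 17 tested AP-1, ETS and RUNX factors, which are known to act on MMP promoters, 4 rose and 1 fell, but with the replicate block rises and falls were close in number, at 8 and 6. *JUND* rose by 0.57 (0.0200), with values of 57.1 to 87.3 CPM with serum and 91.2 to 112 without, and *ATF3* fell by 1.06 (0.0206). In each of these lists the median log2 difference lay between 0.04 and 0.30, against 0.03 for all tested genes.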

How the data were processed

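RNA depleted of ribosomal RNA was sequenced in paired-end reads. The values deposited by the authors are raw read counts of genes, with no normalization. The submitters' processing notes name cutadapt, TopHat2 2.0.11, HTSeq and GRCh38, while the study's methods name hg19 and Cufflinks for FPKM values, which were not used here. The annotation release and strand setting are not given in the sources used here.

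Counts were filtered with filterByExpr (about 0.234 CPM), scaled by TMM and compared between serum-free and serum culture by the quasi-likelihood test of edgeR 4.0.16 (R 4.3.3, robust glmQLFit), with no block in the model, with Benjamini-Hochberg adjustment over 17671 genes and a threshold of 0.05. Differences between lines were tested with condition and line in the model. RPKM values used TMM-scaled CPM and merged exon lengths of GENCODE v44lift37, which is on GRCh37 and not on the build used for counting. Gene positions and promoters are those of RefSeq, GRCh38.p14. Of 58051 genes, 55604 were matched to a symbol.

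Same-numbered libraries come from the same line, which pairs them. Deviations from the condition means correlated at 0.40 to 0.60 within a line and at most at 0.13 over the 12 pairs of different lines. P-values of the serum test without the block measure the spread between clones of 1 cell line. Those of the blocked fits and of the line test measure the spread left after line and condition, with 1 library per line and condition. The alternatives were the line as a replicate block, with and without a correction for GC content, DESeq2 1.42.0, limma 3.58.1 (voom), RLE and upper-quartile scaling, 2 other filters, and each library or line left out. On simulated counts, the serum fits recovered 200 of 200 genes with a simulated log2 change of 1. These genes were simulated with smaller differences between lines than the members showed (fitted ranges of 0.37 to 1.75). Their recovery therefore does not measure that of the members. The 12 pairs of libraries within a condition all differed beyond counting noise.

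The 10 members and the gene lists were chosen with earlier results of these data known. Named beyond the members are the 2 genes of each list with the smallest p among those called, every other MMP gene averaging 10 counts or more, and marker genes; *TIMP4*, *MMP26*, *MMP27*, *MMP23A* and genes that share sequence with a member or host it were named after their values were seen.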

Additional observations from a re-analysis of the deposited data

Results flagged for a closer look

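*TIMP1* in WT4 stood apart from the other 3 lines, at 504 CPM with serum and 424 CPM without, and *MMP9* in WT1 stood apart without serum, at 0.427 CPM from 18 counts. In each case the gap to the nearest line, as a share of the range of the 4 lines (0.916, 0.838 and 0.926), was above Dixon's critical value at the 95% level for 4 samples. Of 20 sets of 4 values searched, 3 passed, where chance gives about 1 in 20.

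The response to serum withdrawal went the opposite way in WT4 from the other 3 lines for *MMP15*, with a log2 ratio of -0.30 in WT4, and for *TIMP1*, with -0.25. The response of WT4 minus that of the other 3 lines was -0.40 for *MMP2*, -0.35 for *TIMP1*, -0.53 for *MMP17* and -0.51 for *MMP15* on the log2 scale. This contrast was chosen after these ratios were seen. With 1 WT4 library per condition, all of the spread comes from the other 3 lines, so only the sizes are given.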

How the results depend on the processing

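With the line as a replicate block, 4106 genes were higher and 3961 lower without serum, in place of 1957 and 2477, and 5 members were higher. With the block and a GC correction, 3791 genes were higher and 4301 lower, 4 members were higher, with the call of *MMP17* lost (0.08), and 2 members were lower (*MMP15* at -0.22 and *TIMP1* at -0.16). Blocked fits added after the data were seen gave, without WT1, WT2, WT3 and WT4, 3107, 3200, 2979 and 4479 genes higher and 5, 5, 5 and 7 members higher, and 4459 genes lower without WT4. With the block, *TIMP1* was at 0.02 with all lines and at 0.11 without WT4, where it passed. Without the block, *TIMP1* was at -0.07 with all lines and also at 0.11 without WT4, where it did not pass (edgeR's adjusted p = 0.539). With the block and no filter, 4077 genes were higher, 4006 lower and 5 members higher. The cause of these shifts was not tested. Without the block, *TIMP3* (0.63) was no longer called when low genes were kept (edgeR's adjusted p = 0.0618). Beyond *MMP2* and *MMP17*, the block changed no call of a member.

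Leaving out each library or line, without the block, gave 620 to 2849 genes higher and 969 to 3279 lower, 1 to 3 members higher and 0 lower, 2364 to 7580 genes that differed between lines, and 4 to 7 members that did. The lowest counts of members called higher came without WT1 or WT2 and the lowest count by line without WT3. DESeq2, limma's voom and both scalings kept 3 members higher and 0 lower, and 7 members by line. The values of *MMP15* and *TIMP2* stayed within 0.22 of 0 and changed sign between settings. That of *TIMP1* changed sign too, from -0.57 without the WT4 serum-free library to 0.61 without the WT4 serum library, and passed in neither. Levels per length kept 7 members above the median under each alternative, and 9 of 20 levels moved by more than the spread between lines with the longest transcript. *MMP3* and *MMP9*, with 1 to 18 counts per library, were too low to be tested.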
